A study of Mus musculus with 2 samples.

Results

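The receptors and kinases through which the interleukin 6 (IL6) family of cytokines acts were followed in the endothelium of the mouse lung 6 h after melanoma cells had arrived. The set held 10 of the 31053 genes counted, chosen by name, with earlier results of these data known. They were the receptor chains Osmr, Lifr, Il6st and Il6ra, the Janus kinases Jak1, Jak2, Jak3 and Tyk2, the transcription factor Stat3 and its feedback inhibitor Socs3. All 10 were measured in both libraries.

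The mice were C57BL/6, wild type and male. The study used its mice at 8 to 12 weeks of age and gives a narrower range within it for the injected males. They received phosphate-buffered saline (PBS, the control library) or 200000 cells of the B16-F10 mouse melanoma line in 100 µl of PBS (the metastatic library) through the tail vein. After 6 h the lungs were digested for 1 h at 37 °C, PECAM1-positive cells were sorted with no gate against leukocytes, and 3′ single-cell libraries were made. Each library pooled 2 mice and each group had 1 library, so no replicate spread exists and no test between groups was possible. All intervals are at 95% and reflect the counting of molecules alone. How far mice of 1 group differ is unknown here.

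Cytokines of the IL6 family bind a receptor chain of their own and a shared chain, gp130, the product of Il6st. The chains carry Janus kinases, which phosphorylate STAT3, and STAT3 enters the nucleus and induces genes that include its own inhibitor SOCS3. In mice the oncostatin M receptor (OSMR) pairs with gp130 for oncostatin M, the leukemia inhibitory factor receptor (LIFR) pairs with gp130 for LIF, and IL6 needs its own receptor chain, the product of Il6ra, or a shed form of it. In endothelium the pathway is known as a route to adhesion molecules and to changes of the vessel barrier.

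The control library held 67929614 UMIs (unique molecular identifiers, each one captured RNA molecule) and the metastatic library 64733724. Barcodes with 1000 to 5000 genes and under 20% mitochondrial UMIs numbered 7134 and 6466. Classes were set by detection of at least 2 of a few marker genes, none of them a member. General capillary barcodes (Gpihbp1, Aplnr, Kit, Lpl) numbered 5020 and 4519, aerocyte barcodes (Ednrb, Fibin, Tbx2) 1364 and 1086, vein barcodes (Slc6a2, Car8, Bst1) 247 and 304, and artery barcodes (Gja5, Bmx, Fbln5) 63 and 59. At least 3 of 5 endothelial genes were detected in 97.0% to 100% of the barcodes of each class. Independent markers followed the classes: the summed aerocyte markers Car4, Apln, Chst1 and Emp2 reached 4020 CPM (UMIs per 1000000 UMIs of the class) in control aerocyte barcodes and 714 or less in the other classes of both libraries. The vein and artery classes were less separate, since the vein markers Vwf, Nr2f2, Vcam1 and Bgn summed to 2267 CPM in control artery barcodes against 3712 in vein barcodes. General capillary and vein barcodes were also less separate. The general capillary markers Sema3c, Glp1r, Plcb1 and Cd93 summed to 3722 CPM in control general capillary and 2745 in control vein barcodes. In the metastatic library these sums were 3325 and 2329 CPM. The libraries called 16 barcodes in common. Many called barcodes also carried 50 or more UMIs in the other library (3258 control and 4148 metastatic barcodes), and ratios without them are given beside the members they move most. Their removal left 3028 and 1715 general capillary and 440 and 215 aerocyte barcodes. UMIs of called barcodes in the other library came to 1.02% and 1.14% of their own UMIs, with medians of 47 and 58. The limit can therefore take out deeper barcodes more often. The parts of depth and of shared RNA in these ratios were not tested.

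CPM count the 3′ ends of molecules and are not divided by gene length. Levels are therefore compared between classes or libraries for 1 gene, not between genes. Fewer transcripts per cell and fewer expressing cells both lower a CPM, so shares of barcodes with a UMI are given as well, after each barcode was thinned to 2000 UMIs.

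Osmr encodes the signalling receptor chain for oncostatin M (ENSMUSG00000022146, GRCm38 chromosome 15, 6813577 to 6874969, minus strand). Its level differed more between classes than that of any other receptor chain in the control library. In the control library it stood at 182.5 CPM (147 to 224) in artery barcodes, 77.5 (66.3 to 90.04) in vein barcodes, 67.1 (64.3 to 70.02) in general capillary barcodes and 31.1 (27.9 to 34.5) in aerocyte barcodes. In the metastatic library the same classes held 127 (97.7 to 163), 55.7 (47.1 to 65.4), 81.4 (78.2 to 84.7) and 39.2 (35.3 to 43.4) CPM. Artery barcodes were the highest and aerocyte barcodes the lowest in both libraries, a span of 5.87 times in the control and 3.25 times in the metastatic library. Vein and general capillary barcodes overlapped in the control library, whereas general capillary barcodes lay above vein barcodes in the metastatic library.

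The ratio of the libraries for Osmr therefore went in opposite directions. In general capillary barcodes Osmr was higher in the metastatic library, with a log2 ratio of 0.28 (0.19 to 0.36), and in aerocyte barcodes it was at 0.34 (0.12 to 0.55). In vein barcodes it was lower, at -0.48 (-0.80 to -0.15), and in artery barcodes at -0.52 (-1.01 to -0.04). The larger classes gave 2155 and 2465 UMIs (general capillary) and 352 and 368 (aerocyte), but the vein values rested on 171 and 149 UMIs and the artery values on 90 and 62. In control artery barcodes the smooth muscle and pericyte markers summed to 716 CPM against 16.4 in the metastatic ones, with 3 of the 4 markers detected in each and Cspg4 at 0. The myeloid markers went the other way there, at 28.4 and 329 CPM with 3 and 5 of 7 detected. In vein barcodes the epithelial markers summed to 124 and 3651 CPM, with 5 of 5 detected in both. Without barcodes carrying 2 or more markers of a leukocyte, platelet, stromal, epithelial or melanoma type, Osmr in artery barcodes was at 176 and 129 CPM, a log2 ratio of -0.45 with an interval that held 0 (-1.01 to 0.11). In vein barcodes it was then at -0.45 (-0.83 to -0.08). Without barcodes with 50 or more UMIs in the other library, the vein ratio was -0.12 (-1.08 to 0.80) on 28 and 17 UMIs, and the general capillary ratio 0.25 (0.10 to 0.40). The aerocyte ratio was then 0.57 with an interval that held 0 (-0.02 to 1.15), and with 3 markers required per class the aerocyte ratio was 0.12 and the artery ratio -0.11.

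Markers of other cells also differed between the libraries in general capillary barcodes. The erythroid markers summed to 1959 and 824 CPM and the epithelial markers to 1686 and 992 CPM, with 5 of 5 markers detected in each, and the platelet markers to 176 and 272 CPM. Without barcodes carrying 2 or more markers of those other types (erythroid markers not counted), 4086 control and 3607 metastatic general capillary barcodes gave an Osmr ratio of 0.30 (0.20 to 0.39). After subtraction of an estimate of free RNA the Osmr ratio was 0.43, and with every barcode given the same weight it was 0.23. Melanoma markers summed to 1.81 and 2.34 CPM in these barcodes, with 4 and 5 of the 5 detected.

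At 2000 UMIs each, 11.5% (10.6 to 12.4) of control and 13.9% (12.9 to 14.95) of metastatic general capillary barcodes held an Osmr UMI. Unthinned, the shares were 28.3% and 32.1%. In aerocyte barcodes the thinned shares were 6.72% and 6.98% with overlapping intervals, and in artery barcodes 27.0% and 23.7%. Lymphoid barcodes, a class that should lack the gene, held no Osmr UMI in 42 control and 40 metastatic barcodes with median depths of 4447.5 and 5015.5 UMIs, which at a floor of 3 barcodes allows shares of up to 7.14% and 7.5%. The general capillary barcodes had median depths of 5950.5 and 6275 UMIs. Myeloid barcodes (26 and 27) held no Osmr UMI either. The study had named Osmr a marker of a reactive capillary state from data that include these libraries, so its higher level in general capillary barcodes is no independent evidence.

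Lifr encodes the receptor chain for LIF (ENSMUSG00000054263, chromosome 15, 7090614 to 7197489, plus strand). Its gene lies 216 kb from that of Osmr, on the other strand. Its ratio went the other way in capillaries. In general capillary barcodes Lifr stood at 514 CPM (506 to 522) in the control library and 439.6 (432 to 447) in the metastatic one. The log2 ratio was -0.23 (-0.26 to -0.19). Thinned, 59.8% (58.4 to 61.2) and 53.6% (52.1 to 55.05) of these barcodes held a Lifr UMI, and the intervals parted. In aerocyte barcodes it stood at 270.4 and 253 CPM (log2 ratio -0.10, -0.17 to -0.02), and in vein barcodes at 582 and 474 CPM (-0.29, -0.41 to -0.18). In artery barcodes it was at 537 and 543 CPM, with an interval of the log2 ratio from -0.24 to 0.27. Aerocyte barcodes were the lowest in both libraries. In the control library vein barcodes (550 to 614) stood above general capillary barcodes, and artery barcodes (475 to 606) overlapped both. The vein ratio was -0.18 (-0.30 to -0.06) without barcodes that carried markers of other cell types, and -0.44 (-0.79 to -0.10) without barcodes with 50 or more UMIs in the other library. With 3 markers required per class the aerocyte ratio changed sign, to 0.013, and the artery ratio was -0.46.

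Lymphoid barcodes held 1 and 3 Lifr UMIs, or 5.02 and 13.9 CPM. All 4 endothelial classes stood above these, with intervals that parted.

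Il6st encodes gp130, the shared signalling chain (ENSMUSG00000021756, chromosome 13, 112464070 to 112510086, plus strand). Vein barcodes held most of it, with 502 CPM (473 to 533) in the control and 558 (530 to 587) in the metastatic library. General capillary barcodes stood at 241 (235 to 246) and 267 CPM (261 to 273), artery barcodes at 235 (194 to 282) and 288 (242 to 339.6), and aerocyte barcodes at 154 (147 to 161) and 171 (162 to 179). Vein stood above and aerocyte below the other classes in both libraries, whereas artery and general capillary barcodes overlapped. The log2 ratio was 0.15 in general capillary (0.11 to 0.20), in aerocyte (0.05 to 0.25) and in vein barcodes (0.04 to 0.26). In artery barcodes it was 0.29 with an interval that held 0 (-0.07 to 0.66). Without barcodes with 50 or more UMIs in the other library, the general capillary ratio was 0.07 and its interval reached -0.01, and the aerocyte (0.16, -0.14 to 0.45), vein (0.06, -0.25 to 0.36) and artery ratios (-0.22, -1.15 to 0.65) had intervals that held 0. Lymphoid barcodes held 75.3 and 69.7 CPM.

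Il6ra encodes the ligand-binding chain for IL6 (ENSMUSG00000027947, chromosome 3, 89864059 to 89913196, minus strand). In endothelial barcodes it was close to absent. General capillary barcodes held 78 UMIs (2.43 CPM, 1.92 to 3.03) in the control and 70 (2.31 CPM, 1.80 to 2.92) in the metastatic library, and aerocyte barcodes 30 and 22. Thinned, 0.404% and 0.381% of general capillary barcodes held a UMI. Myeloid barcodes stood at 245 CPM (185 to 318) and 152 (107 to 209.7). In vein barcodes the count was 5 in the control and 28 in the metastatic library, and 8 of the 28 UMIs lay in 1 barcode. The summed myeloid markers of vein barcodes stood at 34.9 and 691 CPM, with 6 and 7 of the 7 markers detected. Without barcodes that carried markers of other cell types the vein counts were 4 and 1.

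**Figure D1:**
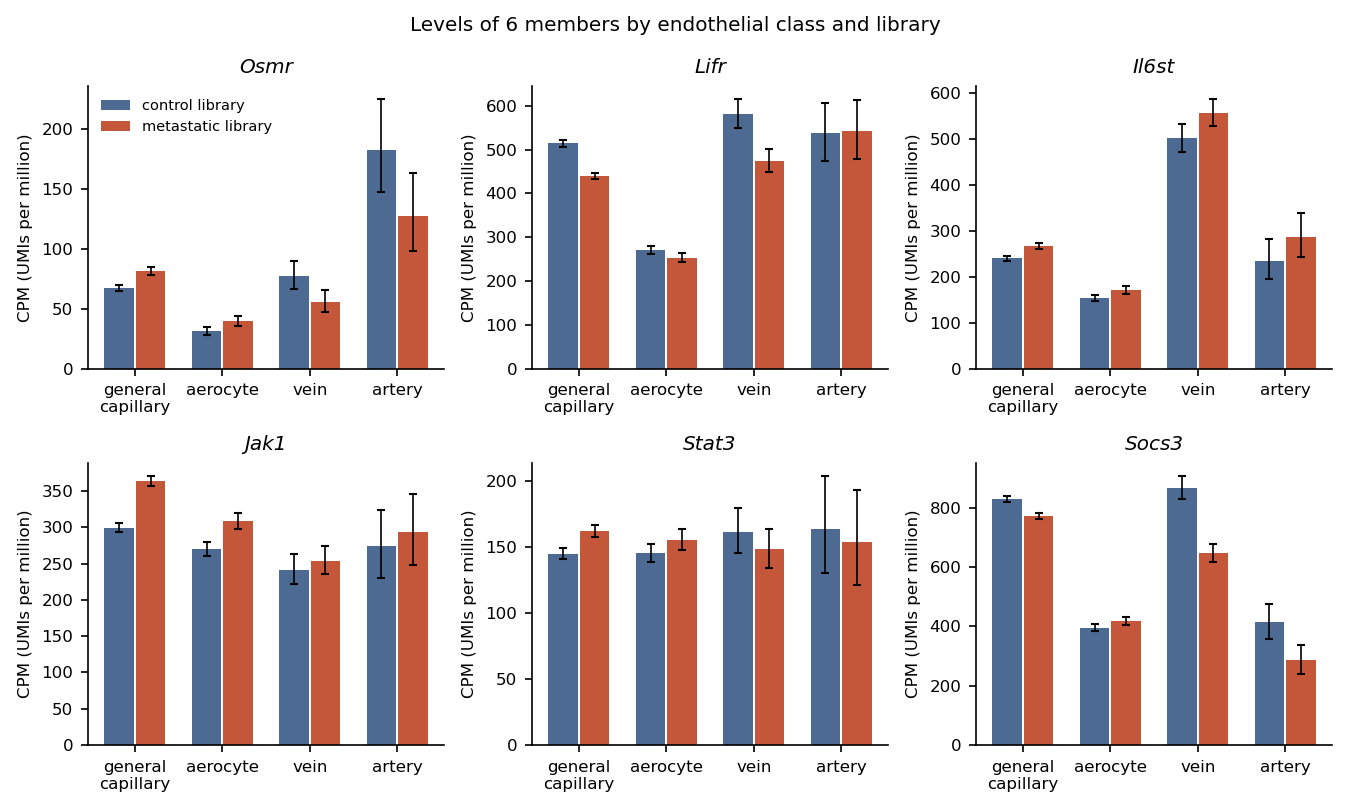
Bars give the level of 6 members in CPM for each endothelial class on the horizontal axis, with the control library in blue and the metastatic library in red, and error bars give the exact Poisson 95% interval. Osmr was highest in artery and Il6st in vein barcodes of both libraries, aerocyte barcodes were lowest for Osmr, Lifr and Il6st, and Stat3 lay between 145 and 164 CPM in every class and library.

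The kinase genes Jak1, Jak2 and Jak3 were higher in general capillary barcodes of the metastatic library, whereas the interval of the Tyk2 ratio held 0. Jak1 is the kinase known as the main one for gp130 signals (ENSMUSG00000028530, chromosome 4, 101152367 to 101265282, minus strand). In general capillary barcodes it stood at 299 CPM (294 to 306) in the control and 364 (357 to 371) in the metastatic one, giving a log2 ratio of 0.28 (0.24 to 0.32). Aerocyte barcodes held 269 and 309 CPM (0.20, 0.12 to 0.27). In vein (242 and 254 CPM) and artery barcodes (274 and 294 CPM) the intervals of the ratio held 0. In the control library general capillary barcodes stood above aerocyte (260 to 279) and vein barcodes (222 to 263) and overlapped artery barcodes (229.6 to 324). In the metastatic library general capillary barcodes stood above all other classes. In lymphoid barcodes Jak1 was at 808 and 521 CPM, above every endothelial class.

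Jak2 (ENSMUSG00000024789, chromosome 19, 29251828 to 29313080, plus strand), which gp130 and many hormone and cytokine receptors use, stood at 34.5 CPM (32.4 to 36.5) and 42.1 (39.9 to 44.5) in general capillary barcodes, a log2 ratio of 0.29 (0.17 to 0.41). In aerocyte barcodes it was at 28.1 and 33.2 CPM (0.24, 0.01 to 0.47). Vein barcodes held 58 and 96 UMIs with a log2 ratio of 0.45 (-0.04 to 0.94), and artery barcodes 7 and 13 UMIs. Without barcodes with 50 or more UMIs in the other library the general capillary ratio was 0.18 (-0.04 to 0.40), and the aerocyte ratio changed sign, to -0.18 (-0.93 to 0.53), on 64 and 23 UMIs. The study had reported Jak2 as upregulated in its reactive capillary state from data that include these libraries. The higher Jak2 level in general capillary barcodes is thus no independent evidence.

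Jak3 (ENSMUSG00000031805, chromosome 8, 71676296 to 71690575, plus strand), the kinase of the common gamma chain Il2rg, was at 9.78 CPM (8.73 to 10.9) and 13.5 (12.3 to 14.9) in general capillary barcodes, a log2 ratio of 0.47 (0.25 to 0.69). This was the member with the largest ratio there. In aerocyte barcodes it was at 7.95 and 10.7 CPM (log2 ratio 0.42, with an interval that held 0 and reached 0.85). Lymphoid barcodes held only 1 and 2 Jak3 UMIs. Vein barcodes held 9 and 20 UMIs and artery barcodes 0 and 4.

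Tyk2 (ENSMUSG00000032175, chromosome 9, 21104068 to 21131243, minus strand), which also serves interferon receptors, was at 15.4 (14.1 to 16.8) and 15.7 CPM (14.3 to 17.2) in general capillary barcodes, a log2 ratio of 0.03 (-0.16 to 0.21). Aerocyte barcodes held 9.62 and 13.0 CPM on 109 and 122 UMIs, a log2 ratio of 0.43 (0.05 to 0.82). Artery barcodes were the highest of the classes in both libraries at 24.3 (12.6 to 42.5) and 30.8 CPM (17.3 to 50.9), on 12 and 15 UMIs. In the control library their interval overlapped that of general capillary barcodes. Vein barcodes stood at 13.6 and 13.5 CPM on 30 and 36 UMIs. With counts this low no order of artery and vein barcodes is read.

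Stat3 itself (ENSMUSG00000004040, chromosome 11, 100885098 to 100939540, minus strand) was the most even of the members. In the control library the levels were 145 CPM (141 to 149) in general capillary, 146 (139 to 153) in aerocyte, 162 (145 to 179.5) in vein and 164 (130.5 to 204) in artery barcodes. In the metastatic library they were 162 (158 to 167), 156 (148 to 164), 148 (134 to 164) and 154 (121 to 193) CPM. All neighbours in these orders overlapped, and the highest class exceeded the lowest by 1.13 and 1.09 times. The log2 ratio was 0.16 (0.10 to 0.22) in general capillary barcodes. In aerocyte (0.10), vein (-0.13) and artery barcodes (-0.09) its interval held 0. Without barcodes with 50 or more UMIs in the other library the general capillary ratio was 0.05 (-0.06 to 0.16), and after subtraction of free RNA it was 0.27. These are transcript counts, and the phosphorylation through which STAT3 acts was not measured.

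Socs3 (ENSMUSG00000053113, chromosome 11, 117966079 to 117970047, minus strand) is the classical target of STAT3 and binds gp130 and the kinases to end the signal. Where Osmr and 3 kinases were higher, in general capillary barcodes, Socs3 was lower. There it stood at 828 CPM (818 to 838) in the control and 771 (761 to 781) in the metastatic one, giving a log2 ratio of -0.10 (-0.13 to -0.08). Vein barcodes held 867 (829 to 907) and 647 CPM (617 to 679), a log2 ratio of -0.42 (-0.52 to -0.33). Artery barcodes held 414 (359 to 475) and 286 CPM (240.2 to 337), at -0.53 (-0.86 to -0.22). Only in aerocyte barcodes did the interval lie above 0, with 396 (384 to 408) and 419 CPM (406 to 432) and a log2 ratio of 0.08 (0.02 to 0.14). The artery value rested on 204 and 139 UMIs, and without barcodes with 50 or more UMIs in the other library it was 0.01. The vein ratio was then -0.21 (-0.47 to 0.05) and the aerocyte ratio 0.34 (0.15 to 0.53). The thinned share of artery barcodes with a Socs3 UMI went against the CPM, at 28.6% (17.9 to 41.4) and 33.9% (22.1 to 47.4) with overlapping intervals, so no order is read from it. The general capillary ratio was -0.19 without the barcodes with 50 or more UMIs in the other library and -0.03 after an estimate of free RNA was subtracted. Lymphoid barcodes held 105 and 121 CPM.

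The promoter of Socs3 is shown because it is the member whose transcript STAT3 is known to induce. In the RefSeq promoter windows of GRCm38.p6 (250 bases before to 50 after each start; all 10 members matched) the loose STAT motif TTCNNNGAA, which reads the same on both strands, was found for Socs3 alone among the members. It was present in 8.30% of the 32851 windows. The stricter form TTCCNGGAA, in 1.15% of windows, was in no member's window. The AP-1 motif TGANTCA, in 7.81% of windows, was found for Osmr, and the CRE motif TGACGTCA, in 1.79%, for Jak1, with both strands searched. A match is a stretch of letters and not a measured binding site. RefSeq puts the start at 117969366. In GENCODE the coding transcript starts at 117969186, downstream of the end of the window. The bases between were not searched, so the absence of a motif holds for the window alone. Another 2 transcripts with no coding sequence start at 117969451 and 117970047. The stretch shown therefore lies inside the annotated span of the gene, in an intron of the transcript with no coding sequence that starts at 117970047. It lies upstream of the coding transcript. It is chr11:117969452-117969616, minus strand, the part of the window before the RefSeq start that holds no GENCODE exon of Socs3, with the motif, which begins 154 bases before the RefSeq start, in capitals.
Socs3: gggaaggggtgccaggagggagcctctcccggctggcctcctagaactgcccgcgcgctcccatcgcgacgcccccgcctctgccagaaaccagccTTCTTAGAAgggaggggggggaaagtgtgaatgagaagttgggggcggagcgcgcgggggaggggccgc

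Socs3 was unevenly spread over barcodes of 1 class. After thinning to 2000 UMIs, 39.8% of the control and 41.9% of the metastatic general capillary barcodes held 0 Socs3 UMIs, 34.7% and 34.8% held 1 or 2, 19.6% and 18.2% held 3 to 5, and 5.96% and 5.11% held 6 or more, up to 17 UMIs in both libraries. Lifr, whose mean per barcode was 1.01 and 0.880 against 1.66 and 1.55 for Socs3, had 6 or more UMIs in 0.263% and 0.448% of the same barcodes. In vein barcodes 6.50% and 3.63% held 6 or more Socs3 UMIs. In aerocyte barcodes the order was the other way, at 1.55% and 1.96%. No intervals were computed for these shares, and the vein shares come from 246 and 303 barcodes.

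**Figure D2:**
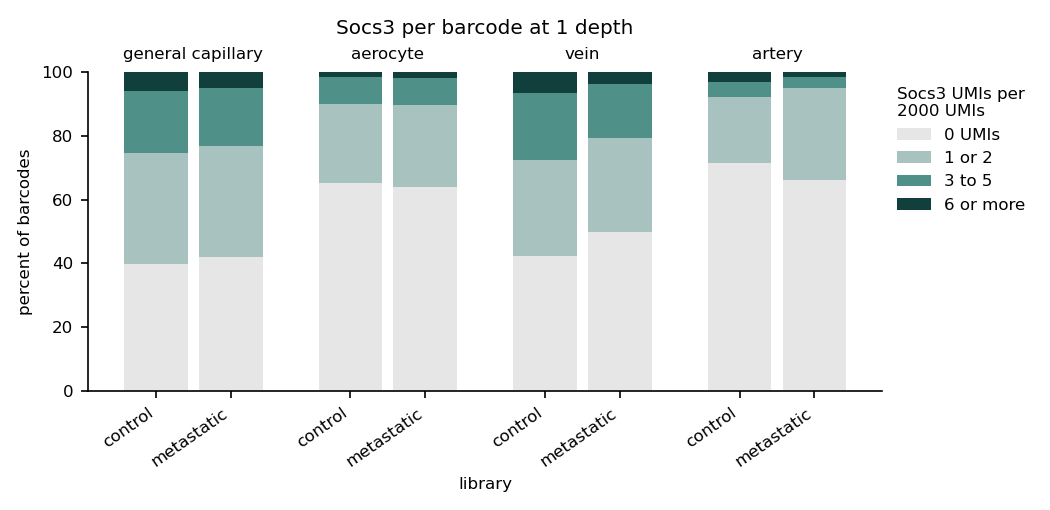
Stacked bars give the percent of barcodes of each class and library (horizontal axis) with 0, 1 or 2, 3 to 5, and 6 or more Socs3 UMIs after each barcode was thinned to 2000 UMIs. General capillary and vein barcodes had the larger shares with 3 or more UMIs, and 65.2% of control aerocyte and 71.4% of control artery barcodes held none.

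Socs3 went with the immediate early genes, transcription factors and regulators such as Fos, Jun and Egr1 that cells induce within minutes of a stimulus. Over thinned general capillary barcodes, the correlation of Socs3 with the summed UMIs of 12 immediate early genes (Socs3 not among them) was a Pearson's r of 0.55 in the control (n = 4947) and 0.52 in the metastatic library (n = 4461), and Spearman's rho was 0.62 and 0.59. The same correlation was between -0.04 and 0.01 for Osmr, Lifr, Il6st, Jak1 and Stat3. These points are barcodes of 1 library at 1 depth and are not replicates, so no p is given. The immediate early sum stood at 14068 and 14437 CPM in general capillary, 9815 and 10440 in aerocyte, 15793 and 15057 in vein and 9274 and 7500 in artery barcodes. It was higher in the metastatic library in the 2 capillary classes and lower in vein and artery. All tissue was digested at 37 °C, and the part of the digestion in the Socs3 level was not tested.

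Across the set, 4 of 10 members (Osmr, Jak1, Jak2 and Jak3) were at a log2 ratio of 0.25 or more in general capillary barcodes, and 0 at -0.25 or less. Without barcodes with 50 or more UMIs in the other library 2 remained past the fold, Osmr at 0.25 and Jak3 at 0.63. No share of all genes was computed for that setting. All 10 passed the filter of 100 UMIs over both libraries. Of all 11220 genes that passed it, 14.6% were higher and 8.48% lower by the same fold. The median log2 ratio of the members was 0.16 against 0.02 for all genes. In aerocyte barcodes 3 of the 9 members that passed (Osmr, Jak3 and Tyk2) were higher and 0 lower, with 13.8% and 8.3% of 9504 genes as background. In vein barcodes 1 of 7 (Jak2) was higher and 3 (Osmr, Lifr and Socs3) were lower, with backgrounds of 16.6% and 15.7% of 6260 genes. In artery barcodes 1 of 6 (Il6st) was higher and 2 (Osmr and Socs3) were lower, with 21.6% and 17.8% of 1827 genes. The backgrounds were larger in these classes, which held 59 to 304 barcodes a library. The members' medians there were -0.13 and -0.04 against 0.01 and 0.00 for all genes.

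**Figure D3:**
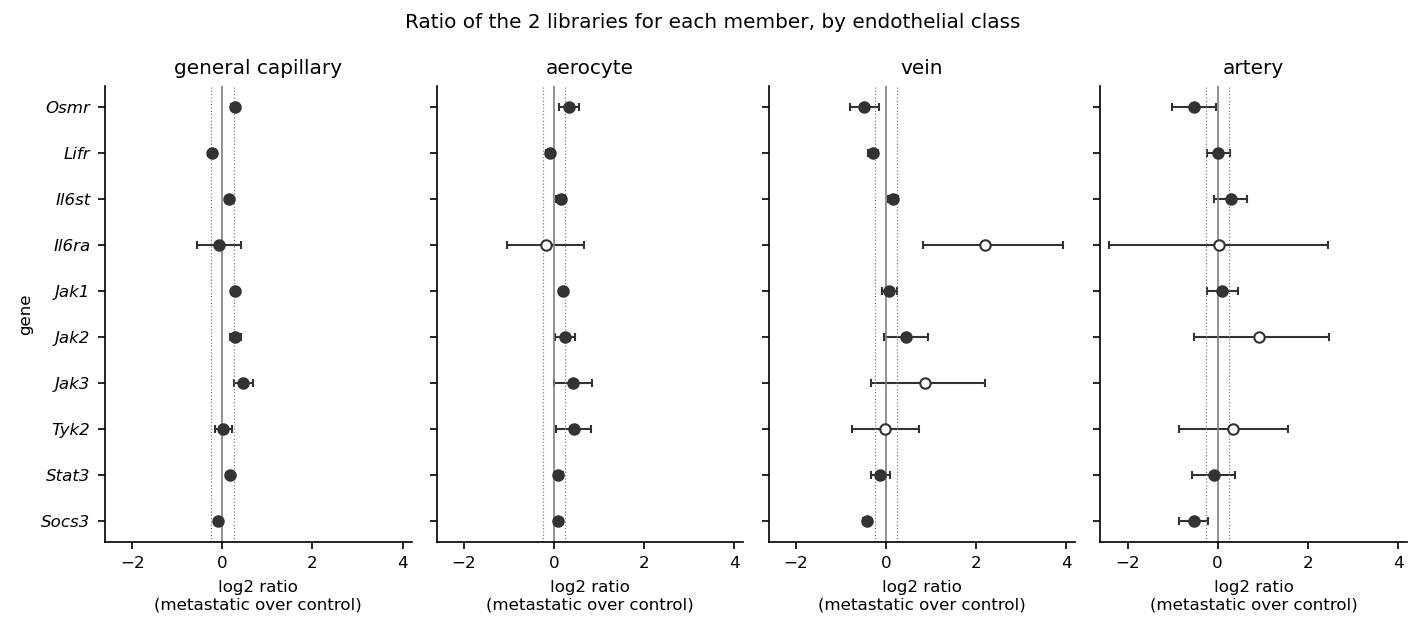
Points give the log2 ratio of the metastatic over the control library (horizontal axis) for each member (vertical axis) in the 4 endothelial classes, with 95% intervals for counting error; open points are members with under 100 UMIs in the class, and dotted lines mark the fold of 0.25. Osmr lay above 0 in both capillary classes and below 0 in vein and artery, and the open Il6ra point in vein barcodes rested on 5 and 28 UMIs; Jak3 in artery barcodes, with 0 control UMIs, has no point.

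The pathway was then followed through 67 further genes: 10 cytokines, 13 other receptors, 6 other STATs, 16 feedback genes and 22 genes reported as STAT3 targets. In general capillary barcodes 53 of them passed the filter, of which 21 were higher and 3 lower by the fold, with a median log2 ratio of 0.18. These counts stand beside the 14.6% and 8.48% of all genes. In aerocyte barcodes 12 of 47 were higher and 5 lower, beside 13.8% and 8.3% of all genes. In vein barcodes 10 of 45 were higher and 8 lower, beside 16.6% and 15.7%, and these shares lie near the background. In artery barcodes 7 of 16 were higher and 1 lower, beside 21.6% and 17.8%.

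The ligands were nearly absent from endothelial barcodes. Il6 had 0 and 4 UMIs in general capillary barcodes, Il11 had 5 and 7, Lif had 4 and 11, Osm had 13 and 17, Ctf1 had 2 and 4, Ebi3 had 7 and 8, Il27 had 0 and 1, and Cntf and Il31 had none. Clcf1, which encodes a cytokine that signals through the ciliary neurotrophic factor receptor, was the only ligand to pass the filter, with 6.67 and 8.45 CPM and a log2 ratio of 0.34 (0.07 to 0.61). Osm, the ligand of the receptor Osmr, was found in myeloid barcodes, at 249 CPM on 57 UMIs in 14 of 26 control barcodes and 123 CPM on 30 UMIs in 11 of 27 metastatic barcodes. In vein barcodes Osm had 0 and 10 UMIs, and 9 of the 10 lay in 1 barcode. Il6 had 12 UMIs in control and 3 in metastatic myeloid barcodes.

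Of the other receptors, 3 of the 9 that passed were higher in general capillary barcodes and 0 lower, beside 14.6% and 8.48% of all genes. Il2rg, the common gamma chain that Jak3 serves, stood at 66.5 and 89.5 CPM (log2 ratio 0.43, 0.35 to 0.51). Ifngr1, a chain of the interferon gamma receptor, was at 181 and 235 CPM (0.37, 0.32 to 0.42) and was past the fold in all 4 classes. Il4ra, the interleukin 4 receptor chain, was at 202 and 250.1 CPM (0.31, 0.26 to 0.35). The leptin receptor gene Lepr, whose product signals through STAT3, was at 57.3 and 49.8 CPM in general capillary barcodes (-0.20, -0.30 to -0.10) and at 97.3 and 158 CPM in artery barcodes (0.70, 0.16 to 1.25).

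Among the other STATs, Stat2, Stat5a, Stat5b and Stat6 lay between 0.03 and 0.18 in general capillary barcodes, none of them past the fold. Stat2, which serves type I interferon receptors, stood at 62.95 and 71.5 CPM (0.18, 0.10 to 0.27), with an interval that overlapped that of Stat3.

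Of 16 feedback genes, 4 were higher and 1 lower in general capillary barcodes, beside 14.6% and 8.48% of all genes there. Socs1, which blocks Janus kinases directly, stood at 27.6 and 34.5 CPM (0.32, 0.19 to 0.45), and Socs2, known for its part in growth hormone signalling, at 77.3 and 104 CPM (0.43, 0.35 to 0.50). Ptpn2, a phosphatase of Janus kinases and STATs, was at 24.4 and 36.7 CPM (0.59, 0.45 to 0.72). Ptpn6 was past the fold on 60 and 75 UMIs with an interval that held 0 (-0.10 to 0.92). Cish, a feedback gene of STAT5, was lower, at 216 and 173 CPM (-0.32, -0.37 to -0.27). Socs3 thus lay on the other side of 0 from Socs1 and Socs2, and their intervals parted.

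Of the 22 targets, 12 were higher and 2 lower in general capillary barcodes, beside 14.6% and 8.48% of all genes. Their median log2 ratio was 0.27. The genes with the largest ratios were Myc, a growth regulator, with 31 and 190 UMIs (2.70, 2.15 to 3.30), and Bcl3, a partner of NF-kB, at 16.1 and 43.5 CPM (1.44, 1.29 to 1.59). Timp1, a protease inhibitor, had 37 and 78 UMIs (1.16, 0.58 to 1.77). Vegfa, the main angiogenic factor, stood at 158 and 280.3 CPM (0.83, 0.78 to 0.88), and Icam1, an adhesion molecule for leukocytes, at 192 and 281 CPM (0.55, 0.50 to 0.60). Bcl6, Il1r1, Fgl2, Pim1, Irf1, Cebpb and Ccnd1 lay between 0.26 and 0.48, and the interval of Fgl2 held 0.

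Genes of the same list went the other way or moved little. Bcl2l1, a survival gene, was lower, at 249 and 134 CPM (-0.89, -0.94 to -0.83). Lrg1, a secreted protein of inflamed vessels, was lower as well, at 83.4 and 69.3 CPM (-0.27, -0.35 to -0.18). Pim3 was at 0.14, Junb at 0.12, Mcl1 at -0.11 and Cebpd at -0.16. Bcl3, Pim1, Pim3, Vegfa, Icam1 and others of the list are induced through more than one pathway. Bcl3, Pim1, Pim3 and Vegfa were also described by the study from data that include these libraries. The count is therefore no independent evidence of STAT3 activity. In vein barcodes 4 of the 19 targets that passed were higher and 5 lower, beside 16.6% and 15.7% of all genes there. Bcl3 (1.16, 0.60 to 1.74) was higher there, whereas Lrg1 (-0.59), Bcl2l1 (-0.91) and Pim3 (-0.26) were lower. The STAT motif TTCNNNGAA was in the promoter windows of 6 of the 19 targets that had a window. It was also in those of 3 of 11 other receptors, 1 of 9 feedback genes, 0 of 7 cytokines and 0 of 5 other STATs. Of all windows, counted singly and not by gene, 8.30% held it.

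**Figure D4:**
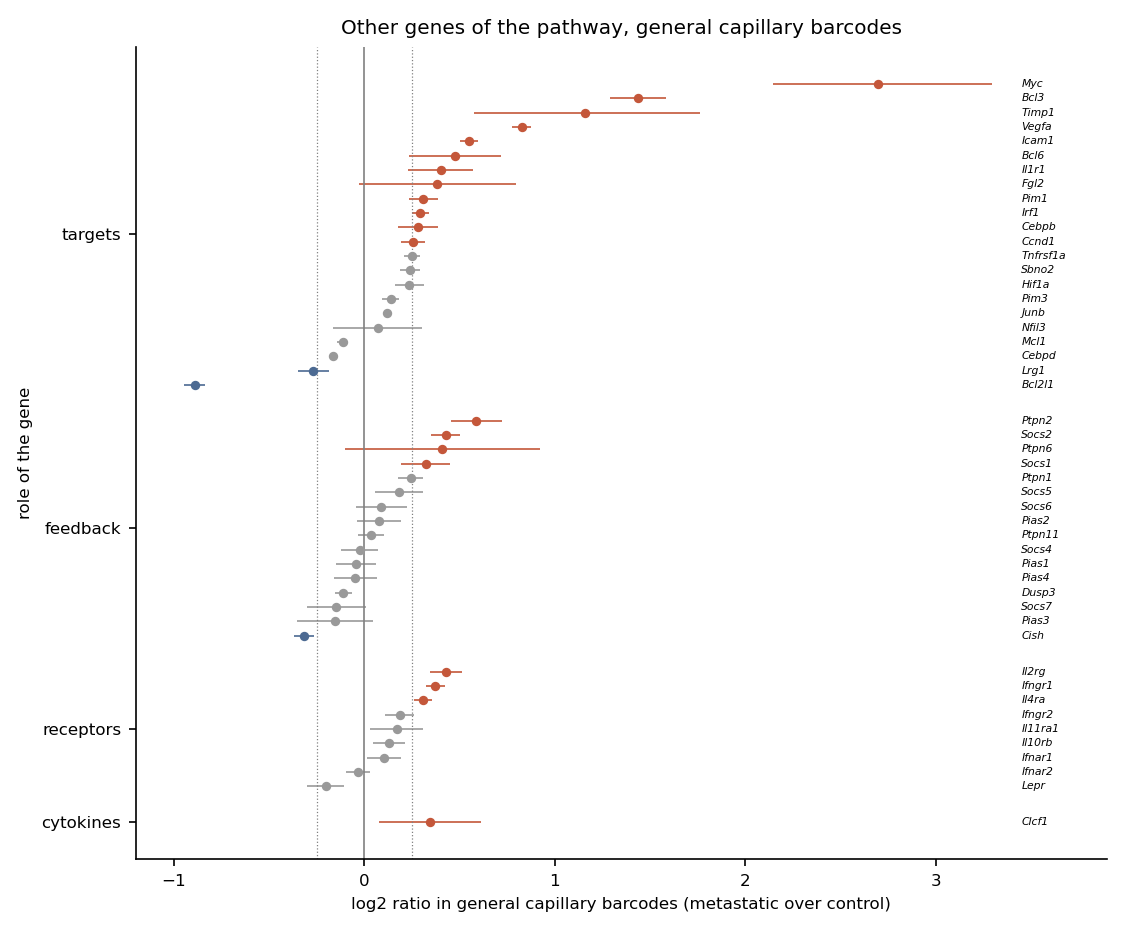
Points give the log2 ratio of the metastatic over the control library in general capillary barcodes (horizontal axis) with 95% counting intervals for the cytokines, receptors, feedback genes and targets with at least 100 UMIs, grouped by role on the vertical axis, with red for higher and blue for lower past the fold of 0.25. Targets spread from Bcl2l1 at -0.89 to Myc at 2.70, and Cish at -0.32 was the lowest of the feedback genes.

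The transcripts of 14 genes were set against Osmr within barcodes. The contrast was run for these 14 genes alone, so no share over all genes stands beside it. Barcodes of 1 library are not replicates. Among metastatic general capillary barcodes thinned to 2000 UMIs, 620 held an Osmr UMI and 3841 did not. Il6st was detected in 45.3% (41.4 to 49.3) of the former and 36.7% (35.2 to 38.2) of the latter, and Jak2 in 11.8% (9.34 to 14.6) and 6.56% (5.80 to 7.39). Socs3 was detected in 62.9% (58.97 to 66.7) and 57.3% (55.7 to 58.9). Bcl3 (10.3% and 6.77%), the kinase gene Pim3 (39.0% and 31.3%) and Inhbb, which encodes an activin subunit (8.06% and 2.32%), were also more often detected with Osmr, with intervals that parted. Lifr (51.8% and 53.9%), Jak1 (52.3% and 47.8%) and Stat3 (29.7% and 26.0%) had overlapping intervals. Inhbb, Bcl3 and Pim3 were named by the study with Osmr as markers of 1 capillary state, and Jak2 was reported as upregulated in it.

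In the control library 569 barcodes held an Osmr UMI and 4378 did not. Of the 14 genes, Inhbb alone had intervals that parted there, at 2.64% (1.48 to 4.31) and 0.548% (0.352 to 0.815). Il6st (40.6% and 35.8%), Jak2 (5.62% and 6.44%) and Socs3 (56.1% and 60.8%) had overlapping intervals. The difference between the libraries in these contrasts was not tested. Osmr and Il6st, the chains of the oncostatin M receptor, were found together in 4.67% (4.10 to 5.29) of the control and 6.30% (5.60 to 7.05) of the metastatic general capillary barcodes, whereas the product of their single shares was 4.18% and 5.27%. Lifr and Il6st shared 22.3% and 20.8% of them, and Il6ra and Il6st 0.121% and 0.0672%.

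**Figure D5:**
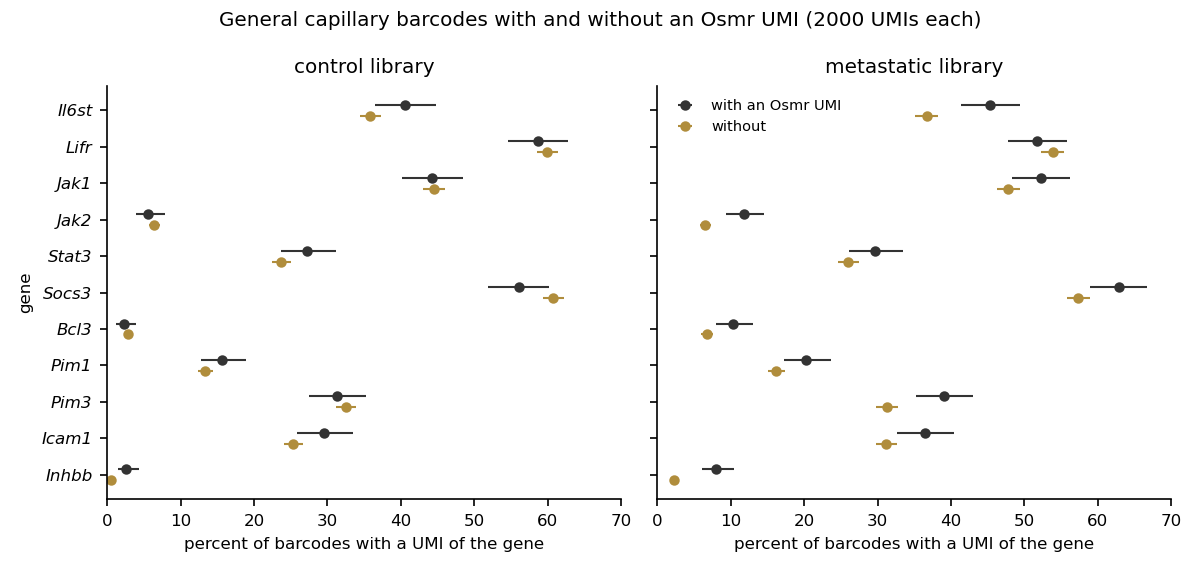
Points give the percent of general capillary barcodes with a UMI of each gene (horizontal axis) for 11 of the 14 genes (vertical axis; Il6ra, Jak3 and Tyk2 are not drawn) among barcodes with (dark) and without (ochre) an Osmr UMI, for the control library on the left and the metastatic library on the right, with exact 95% intervals, at 2000 UMIs a barcode. In the metastatic library Il6st, Jak2, Socs3, Bcl3, Pim3 and Inhbb parted, and in the control library Inhbb alone.

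The genes with the pattern most like each member were sought over the 8 pairs of class and library, by Pearson's r of log2(CPM + 1) among 7041 genes with at least 20 CPM in a class of both libraries. These 8 points share 2 libraries, and with so few points many genes come near 1. Osmr was most like Hnrnph2 (0.98), Ivd and Tmem88, and Lifr most like Jag1 (0.99), Foxo1 and Pde3a. Il6st was most like Tm6sf1 (0.99), Hprt and Pdzd2, Jak1 most like Adgre5 (0.99), and Jak2 most like Cnot3 (0.97), H2-K1 and Mtmr14. Tyk2 was most like Ep400 (0.98), Atp1b3 and Usp47. Socs3 was most like Kazn (0.97), Ugcg and Egr1 (0.96), the last an immediate early gene. Stat3, which hardly varied, reached only 0.86 with Azi2, 0.81 with Usmg5 and 0.80 with Abcf1. Il6ra and Jak3 were under the limit of 20 CPM.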

How the data were processed

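PECAM1-sorted lung cells of 2 mice per library were profiled with the 10x Genomics 3′ kit, 1 library per group. The deposited values are raw UMI counts per gene and barcode: the authors ran Cell Ranger on mm10 and applied no cell filter or normalization to these files. The file headers name version 3.1.0. The annotation release is not given in the sources used here.

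UMIs were summed over the barcodes of a class and given as CPM with exact Poisson intervals. A barcode that met the rule of another class was left out of general capillary barcodes, and 1 that met several went into no class (46 and 32 barcodes, beside 394 and 466 that met no rule). Ratios carry exact conditional binomial intervals, and shares exact Clopper-Pearson intervals. A gene was counted as past the fold at a log2 ratio of 0.25 or -0.25, given at least 100 UMIs over both libraries. Doublets were kept and left out as an alternative. Lymphoid and myeloid barcodes had at least 2 markers of their type and at most 1 endothelial marker. Thinning left out barcodes under 2000 UMIs (73 control general capillary barcodes, for example). The symbol Ccl21a, shared by 2 gene identifiers, was left out of its list. Gene positions come from GENCODE M21 (GRCm38). The scripts were tested on simulated data. Python 3.11.15, numpy 2.4.6, scipy 1.17.1 and, for TMM scaling, edgeR 4.0.16 were used.

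The members and lists were chosen with earlier results of these data known. All members are named, with their values. Pathway genes are named where they passed the filter and the fold in general capillary barcodes, or are ligands. Genes outside this rule (Lepr, Stat2, Stat5a, Stat5b, Stat6, Pim3, Junb, Mcl1, Cebpd and Inhbb) were named after their values were seen or for the contrast with Osmr. Some results that the rule would name are not reported here. Alternatives were other barcode filters, stricter classes, removal of doublets, of barcodes with markers of other cell types and of barcodes found in the other library, subtraction of free RNA, and other scalings.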

Additional observations from a re-analysis of the deposited data

Results flagged for a closer look

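Osmr had ratios on opposite sides of 0 in different endothelial classes, each with a counting interval that left out 0 in the values reported. Its log2 ratio of the metastatic over the control library was 0.28 in general capillary and 0.34 in aerocyte barcodes, but -0.48 in vein and -0.52 in artery barcodes. The artery interval held 0 without barcodes carrying markers of other cell types (-1.01 to 0.11). Without barcodes with 50 or more UMIs in the other library the aerocyte (-0.02 to 1.15), vein (-1.08 to 0.80) and artery intervals (-2.20 to 0.56) held 0, and with 3 markers required per class the aerocyte ratio was 0.12. The difference between the classes was not tested, since each group had 1 library.

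Socs3 showed the same kind of split, with a log2 ratio of 0.082 in aerocyte barcodes against -0.10 in general capillary, -0.42 in vein and -0.53 in artery barcodes. Without barcodes with 50 or more UMIs in the other library, the artery ratio was 0.012 and the vein interval held 0 (-0.47 to 0.05). The aerocyte ratio was then 0.34 (0.15 to 0.53). After subtraction of free RNA the general capillary ratio was -0.031. The difference between the classes was not tested for Socs3 either.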

How the results depend on the processing

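Of 535 recomputed log2 ratios, 31 had the other sign than the value reported. In 27 of them the value reported was short of the fold of 0.25, mostly in artery barcodes or for Il6ra, Tyk2 and Stat3, and in 4 it was past the fold. These 4 were Il6ra in vein barcodes (-2.25 without barcodes carrying 2 markers of other cell types), Il6st in artery barcodes (-0.22 without barcodes with 50 or more UMIs in the other library, and -0.47 without barcodes carrying 2 markers of other cell types, erythroid included) and Socs3 in artery barcodes (0.012 without barcodes with 50 or more UMIs in the other library). Leaving out barcodes with markers of other cell types but not those with erythroid markers was chosen after seeing the data. In all, 482 of the 535 stayed within the counting interval of the value reported.

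In general capillary barcodes, leaving out barcodes with 50 or more UMIs in the other library gave 0.072 for Il6st, 0.048 for Stat3 and -0.19 for Socs3, and 2 members past the fold. Subtracting free RNA, estimated at 22.1% and 27.5% of UMIs, gave 0.43 for Osmr, 0.20 for Il6st, -0.19 for Lifr, 0.27 for Stat3 and -0.031 for Socs3, and 5 pathway genes lower. Leaving out barcodes with markers of other cell types, erythroid included, gave -0.19 for Socs3 and 5 pathway genes lower. Allowing no UMI of another class gave -0.16 for Socs3. Giving every barcode the same weight left 2 members higher, and Osmr at 0.23 was then short of the fold. At a log2 fold of 0.5, 0 members and 7 pathway genes were higher and 1 pathway gene was lower. No share of all genes was computed for this fold or the other settings, so these counts have no background. The causes of these changes were not tested.

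Removing doublets, other limits on genes or mitochondrial share and other scalings moved none of these general capillary values. Of 880 levels in CPM, 698 stayed within their interval, as did 24 of 160 shares of barcodes taken at 1000 UMIs or without thinning, and 139 of 160 counts of genes stayed within 1.5 times. With 1 library per group no replicate could be left out. No paired analysis was possible because each group had 1 library. Depth limits the artery and vein classes most, where 4 and 3 of the 10 members had under 100 UMIs over both libraries.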
